A study of Homo sapiens with 6 samples.

Results

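DNA replication machinery was examined as 46 genes that act at replication origins and forks, chosen by name from their known roles, and all 46 were found among the 58884 genes of the deposited table. RNA of an established cell line of human esophageal squamous cell carcinoma (ESCC), KYSE70, was compared by sequencing with that of NRF2null-KYSE70, a line expanded from a single clone of it after CRISPR-Cas9 cutting of NFE2L2, the gene of the transcription factor NRF2. KYSE70 carries a mutant NFE2L2 whose protein escapes KEAP1, the adaptor that normally sends NRF2 for degradation, and both lines descend from these cells. The cells were untreated, and each line had 3 libraries. The design asks how transcripts differ once mutant NRF2 is disrupted. The study found residual shorter NRF2 isoforms in NRF2null-KYSE70, so some NRF2 signal remained. With a single clone, an effect of the edit and any other property of that clone cannot be told apart. The labels name the libraries replicates without saying that they came from separate cultures, so p-values measure only the spread between these libraries, which may be technical.

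Before a cell divides, the origin recognition complex (ORC) marks start sites on DNA, and CDC6 and CDT1 use it to load the ring-shaped MCM2-7 helicase. In S phase the kinase CDC7, with its partner DBF4, together with CDC45, the GINS complex and MCM10, turns loaded rings into moving helicases. DNA polymerase alpha with primase starts each strand, the clamp PCNA and its loader RFC hold polymerases delta and epsilon on DNA, and FEN1 and LIG1 join the fragments of the lagging strand. Many of these genes are known to be induced by E2F transcription factors as cells leave G1 phase. The machinery is made in dividing cells, and a carcinoma line in culture is a population of dividing cells.

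The libraries held 52072801 to 63975313 reads. NFE2L2 RNA itself measured 9839, 9906 and 10040 normalized counts in KYSE70, and 5803, 6041 and 6434 in NRF2null-KYSE70 (log2 fold change -0.71, SE 0.049, limma adjusted p = 9.37e-08), and the groups did not overlap. A normalized count is a read count divided by the size factor of its library. All 12 squamous epithelial markers were tested and present, 6 lower and 6 higher in NRF2null-KYSE70. Among them, the basal keratin KRT5 averaged 209917 in KYSE70 and 124640 in NRF2null-KYSE70, and the keratin KRT6A averaged 37356 and 60323. Of markers of other cells, 6 of 10 fibroblast genes, 6 of 7 immune and blood genes and 3 of 5 endothelial genes averaged under 10 in both lines. Their summed levels were 3851 to 3981 and 3039 to 3454 for fibroblast, 5.44 to 22.1 and 45.6 to 58.2 for immune and blood genes and 137 to 159 and 293 to 499 for endothelial genes, in KYSE70 and NRF2null-KYSE70 respectively. Most of the immune and blood sum in NRF2null-KYSE70 was PTPRC, a leukocyte phosphatase, which averaged 0.351 in KYSE70 and 43.6 in NRF2null-KYSE70. Of all these markers, 6 passed a limma adjusted p of 0.05 with a log2 fold change of at least 1 in size. They were KRT14 (1.74), COL1A1 (-1.16), COL3A1 (-4.79), VWF (1.28), TEK (2.22) and PTPRC (5.13). The part of these markers in the results was not tested. COL1A2, DCN, FAP, NKG7 and KDR were at 0 in every library. In RNA from whole cultures, fewer cells in S phase and less RNA per cell cannot be told apart.

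Replication genes were more often lower than higher in NRF2null-KYSE70. Of the 46, 27 were lower and 5 were higher at a limma adjusted p under 0.05, and 14 did not pass. Among all 15994 tested genes, 28.3% were lower and 29.3% were higher by the same rule, against 58.7% and 10.9% of the members. The median log2 fold change was -0.19 over the members and -0.007 over all tested genes, and 36 of 46 members lay below 0. Most differences were small. PCNA was the only member that passed the test with a log2 fold change of at least 1 in size, a rule that 14.7% of all tested genes passed. All 3 NRF2null-KYSE70 libraries lay below all 3 KYSE70 libraries for 27 members and above them for 6, where 31.3% and 32.1% of tested genes did so. NRF2null-KYSE70 library 1 was the lowest of its line for 25 members and the highest for 14, which was not counted over all genes. Without that library 28 members were lower and 6 were higher.

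**Figure D1:**
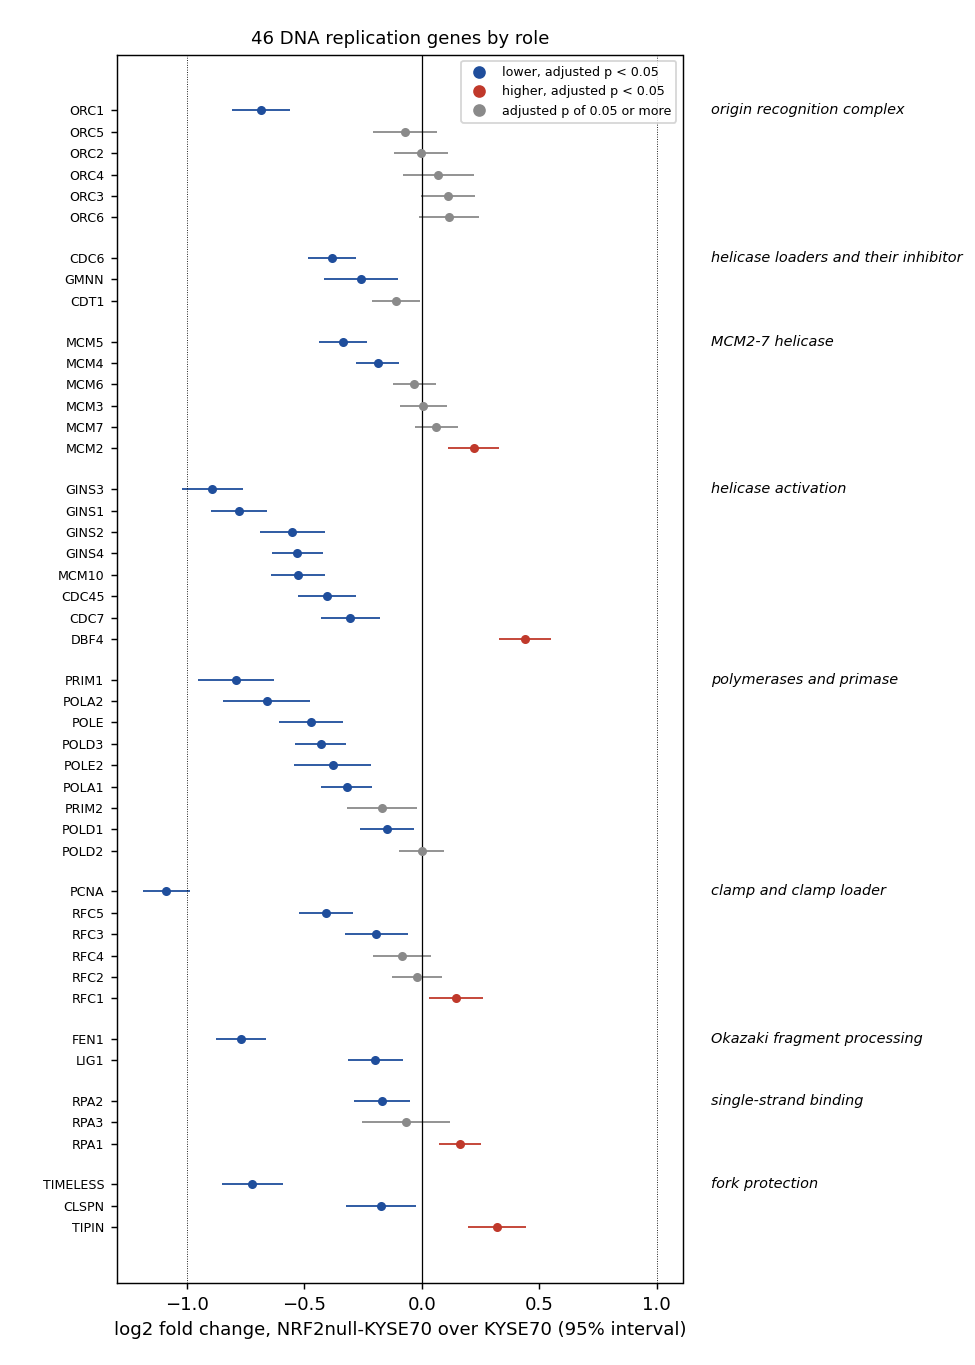
Log2 fold change of each of the 46 members (points) with its 95% interval (lines), NRF2null-KYSE70 over KYSE70, grouped by role. Blue and red mark genes lower and higher at a limma adjusted p under 0.05, grey the rest, and dotted lines a log2 fold change of -1 and 1. PCNA lies at -1.09, all 4 GINS genes lie left of 0, and DBF4 lies at 0.44.

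ORC1, the subunit of ORC that rises and falls through the cell cycle, stood apart from the rest of its complex. It measured 2975, 3163 and 3142 normalized counts in KYSE70, and 1857, 2004 and 1920 in NRF2null-KYSE70. Every NRF2null-KYSE70 library was below every KYSE70 library, and ORC1 fell to 62.3% of its KYSE70 mean (log2 fold change -0.68, SE 0.057, limma adjusted p = 5.15e-07). None of the other 5 subunits passed the test. The log2 fold changes were -0.070 for ORC5, -0.0034 for ORC2, 0.071 for ORC4, 0.11 for ORC3 and 0.11 for ORC6, and their 95% intervals together ran from -0.21 to 0.24, so changes of the size seen in ORC1 lay outside them.

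Among the proteins that load the helicase, CDC6 measured 6313, 6642 and 6525 normalized counts in KYSE70, and 4935, 5056 and 4957 in NRF2null-KYSE70, without overlap. CDC6, the ATPase that joins ORC before loading, fell by 0.38 on the log2 scale (SE 0.046, limma adjusted p = 1.42e-05). GMNN encodes geminin, which binds CDT1 and blocks a further round of loading, and it also fell (log2 fold change -0.26, SE 0.073, limma adjusted p = 0.00898), with -0.16 when NRF2null-KYSE70 library 1 was left out. CDT1 itself had a log2 fold change of -0.11 with an interval of -0.21 to -0.0088 and did not pass (limma adjusted p = 0.0601), although its libraries did not overlap.

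The 6 subunits of the MCM2-7 ring did not move together. MCM5 measured 15711, 14758 and 14670 normalized counts in KYSE70, and 12326, 11919 and 11554 in NRF2null-KYSE70. It fell by 0.33 (SE 0.047, limma adjusted p = 5.53e-05), and MCM4 fell by 0.19 (SE 0.042, limma adjusted p = 0.00213). MCM2 measured 22345, 21807 and 20900 in KYSE70 and 26741, 24457 and 24661 in NRF2null-KYSE70, and all of the latter lay above the former. MCM2 rose (log2 fold change 0.22, SE 0.050, limma adjusted p = 0.00203), but had a log2 fold change of -0.25 once the median of its chromosomal neighbours, described further on, was subtracted. MCM3, MCM6 and MCM7 did not pass. Their log2 fold changes were 0.0072 (95% interval -0.091 to 0.11), -0.031 (-0.12 to 0.060) and 0.063 (-0.029 to 0.15), and the sign of MCM3 turned under TMM, total and quantile scaling.

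In helicase activation, 7 of 8 genes were lower (87.5%, against 28.3% of all tested genes), with a median log2 fold change of -0.53. All 4 GINS genes fell, with a median log2 fold change of -0.66. GINS3 measured 3636, 3674 and 3521 normalized counts in KYSE70, and 1813, 1991 and 2042 in NRF2null-KYSE70, a fall to 54.0% (log2 fold change -0.89, SE 0.060, limma adjusted p = 6.53e-08). GINS1 measured 4263, 4413 and 4620 in KYSE70 and 2478, 2596 and 2677 in NRF2null-KYSE70 (log2 fold change -0.78, SE 0.055, limma adjusted p = 1.02e-07). In neither gene did the groups overlap. GINS1 had -0.37 after subtraction of its neighbours' median.

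GINS2 measured 6769, 6932 and 7329 normalized counts in KYSE70, and 4325, 5061 and 5008 in NRF2null-KYSE70 (log2 fold change -0.55, SE 0.064, limma adjusted p = 9.58e-06). GINS4 measured 4726, 4439 and 4605 in KYSE70 and 3153, 3214 and 3171 in NRF2null-KYSE70 (log2 fold change -0.53, SE 0.050, limma adjusted p = 1.43e-06). These 4 proteins form a single tetramer, and their genes lie on 3 chromosomes, GINS1 on chromosome 20, GINS2 and GINS3 on 16 and GINS4 on 8. MCM10, which helps the helicase to start, fell by 0.53 (SE 0.053, limma adjusted p = 2.82e-06). CDC45, which binds MCM2-7 together with GINS, fell by 0.40 (SE 0.057, limma adjusted p = 5.58e-05).

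The kinase that fires origins has a catalytic subunit, CDC7, and an activating subunit, DBF4, and these moved in opposite directions. CDC7 measured 3535, 3643 and 3400 normalized counts in KYSE70, and 2686, 2934 and 2954 in NRF2null-KYSE70. DBF4 measured 4130, 3938 and 4005 in KYSE70 and 5194, 5659 and 5530 in NRF2null-KYSE70. Neither gene had overlapping groups. CDC7 fell by 0.30 (SE 0.057, limma adjusted p = 5.77e-04), and DBF4 rose by 0.44 (SE 0.051, limma adjusted p = 1.03e-05), the largest rise among the members. After subtraction of their neighbours' medians CDC7 had -0.55, while DBF4 had 0.13 and was no longer called (limma adjusted p = 0.0587).

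**Figure D2:**
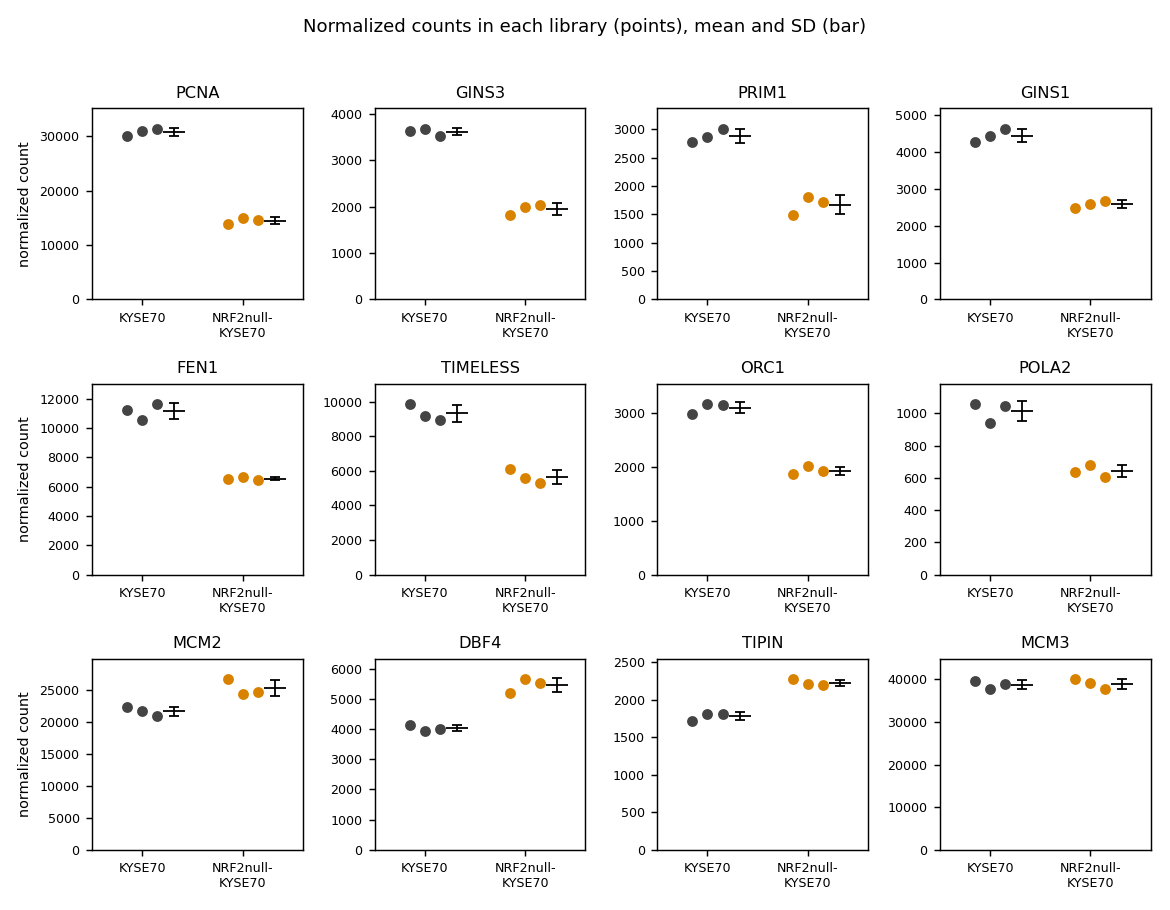
Normalized counts of 12 members in each library (points, KYSE70 grey and NRF2null-KYSE70 orange), with the mean and SD of 3 libraries (bar) and axes that start at 0. The upper 8 panels show the 8 members with the largest falls, in which no library of either line overlapped the other, MCM2, DBF4 and TIPIN show rises, and MCM3 shows overlapping groups.

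Of 9 polymerase and primase genes, 7 (77.8%) were lower and none was higher, against 28.3% and 29.3% of all tested genes. After subtraction of the neighbours' medians 5 were lower, against 27.0% of all genes so treated, and PRIM1 and POLE lost their calls. PRIM1, the catalytic subunit of primase, measured 2769, 2863 and 3006 normalized counts in KYSE70, and 1486, 1811 and 1710 in NRF2null-KYSE70. It fell to 58.0% (log2 fold change -0.79, SE 0.075, limma adjusted p = 1.53e-06), without overlap. POLA2, the regulatory subunit of polymerase alpha, measured 1057, 942 and 1045 in KYSE70 and 638, 682 and 607 in NRF2null-KYSE70 (log2 fold change -0.66, SE 0.085, limma adjusted p = 2.46e-05). Its partner POLA1, the catalytic subunit, fell by 0.32 (limma adjusted p = 1.27e-04). PRIM2, the large subunit of primase, had a log2 fold change of -0.17 with an interval of -0.32 to -0.021 and lay at the threshold (limma adjusted p = 0.0501).

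Polymerase epsilon, which copies the leading strand, was lower in both of its subunits among the members, POLE with a log2 fold change of -0.47 (limma adjusted p = 3.33e-05) and POLE2 with -0.38 (limma adjusted p = 8.75e-04), and in its small subunits POLE3 (-0.62) and POLE4 (-0.32, limma adjusted p = 0.0131). Polymerase delta, which copies the lagging strand, was uneven. POLD3, an accessory subunit, fell by 0.43 (limma adjusted p = 1.04e-05), and POLD1, the catalytic subunit, fell by 0.15 (limma adjusted p = 0.0297). POLD2 measured 16516, 16279 and 17246 normalized counts in KYSE70, and 16419, 16832 and 16777 in NRF2null-KYSE70. The lines overlapped for POLD2, with an interval of the log2 fold change from -0.095 to 0.095. The small subunit POLD4, which is no member and averaged only 244 normalized counts in KYSE70, was higher (log2 fold change 0.33, limma adjusted p = 0.0347).

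PCNA, the sliding clamp that tethers polymerases to DNA, had the largest fall of all members before neighbouring genes were taken into account. After subtraction of their median it kept only -0.16, and GINS3, at -0.97, was the lowest. PCNA measured 30026, 30970 and 31401 normalized counts in KYSE70, and 13891, 15037 and 14615 in NRF2null-KYSE70. No NRF2null-KYSE70 library reached the lowest KYSE70 library, and the mean fell to 47.1% (log2 fold change -1.09, 95% interval -1.19 to -0.99, limma adjusted p = 1.02e-09). Its 3 pseudogenes by name summed to a mean of 1.48 normalized counts, so few counted reads were assigned to those copies.

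The clamp loader RFC1-5, which opens PCNA and closes it around DNA, was mixed. RFC5 measured 5440, 5700 and 5625 normalized counts in KYSE70, and 3976, 4311 and 4360 in NRF2null-KYSE70, a fall by 0.41 (SE 0.052, limma adjusted p = 2.39e-05). RFC3 fell by 0.19 (limma adjusted p = 0.0165). RFC1, the large subunit, measured 6560, 6087 and 6185 in KYSE70 and 7284, 6924 and 6629 in NRF2null-KYSE70, and rose by 0.15 (SE 0.052, limma adjusted p = 0.0300), a rise that became -0.16 after subtracting its neighbours. RFC2 and RFC4 did not pass, with log2 fold changes of -0.019 (interval -0.13 to 0.087) and -0.082 (-0.21 to 0.041).

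FEN1, the nuclease that trims the flaps of Okazaki fragments, measured 11236, 10547 and 11629 normalized counts in KYSE70, and 6532, 6652 and 6415 in NRF2null-KYSE70. It fell to 58.7% (log2 fold change -0.77, SE 0.049, limma adjusted p = 3.99e-08). LIG1, the ligase that seals the fragments, fell by 0.20 (SE 0.054, limma adjusted p = 0.00733). Both genes were lower, and neither had overlapping libraries.

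Replication protein A coats single-stranded DNA, and its 3 subunits went different ways. RPA1, the large subunit, measured 20145, 20330 and 20350 normalized counts in KYSE70, and 22692, 22669 and 22813 in NRF2null-KYSE70, and rose (log2 fold change 0.16, SE 0.041, limma adjusted p = 0.00396). RPA2 fell by 0.17 (limma adjusted p = 0.0195). RPA3 had a log2 fold change of -0.068 with an interval of -0.25 to 0.12 and the widest spread of any member, with a coefficient of variation of 13.7% in NRF2null-KYSE70. The median coefficient of variation over members was 3.32% in KYSE70 and 4.75% in NRF2null-KYSE70.

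TIMELESS and TIPIN encode proteins that bind each other and travel with the fork, and they moved in opposite directions. TIMELESS measured 9860, 9180 and 8908 normalized counts in KYSE70, and 6097, 5567 and 5303 in NRF2null-KYSE70, a fall to 60.7% (log2 fold change -0.72, SE 0.060, limma adjusted p = 4.60e-07). TIPIN measured 1723, 1809 and 1816 in KYSE70 and 2274, 2205 and 2200 in NRF2null-KYSE70, a rise by 0.32 (SE 0.057, limma adjusted p = 3.71e-04). Neither gene had overlapping groups. After subtraction of the neighbours' medians TIMELESS had -0.080 and TIPIN -0.044, and neither was called (limma adjusted p = 0.274 and 0.558). CLSPN encodes claspin, which links the fork to the checkpoint kinase CHEK1. Its libraries overlapped, and it passed narrowly (log2 fold change -0.17, interval -0.32 to -0.023, limma adjusted p = 0.0470).

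Of the 32 calls, those of POLD1, RFC3, RPA2, CLSPN and RFC1 were lost when single libraries were left out, with limma adjusted p up to 0.174, and also, with GMNN, in limma without its trend. MCM2 lost its call under quantile normalization (limma adjusted p = 0.377), as did RPA1 under that (limma adjusted p = 0.831) and under total scaling (limma adjusted p = 0.0832). RFC1 lost its call under the same 2 scalings (limma adjusted p = 0.257 and 0.254). CLSPN lost its call with a pseudocount of 0.1 (limma adjusted p = 0.05045) and without the filter (limma adjusted p = 0.0647). Each member was also compared by its level per length, that is, normalized counts per kilobase of its canonical transcript. On that scale PCNA was the most abundant member of these complexes in KYSE70 at 24137, and it fell to 11375 in NRF2null-KYSE70, below MCM3 at 12694 and MCM7 at 14792. Within the MCM2-7 ring, whose subunits are present once each, levels ran from 4351 for MCM5 to 14161 for MCM7 in KYSE70, a ratio of 3.25, and from 3451 to 14792 in NRF2null-KYSE70, a ratio of 4.29. GINS genes ran from 1218 for GINS4 to 2667 for GINS2 in KYSE70 and from 780 for GINS1 to 1826 for GINS2 in NRF2null-KYSE70. ORC levels ran from 369 for ORC4 to 2769 for ORC6 in KYSE70, and RFC levels from 1289 for RFC1 to 10428 for RFC4.

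**Figure D3:**
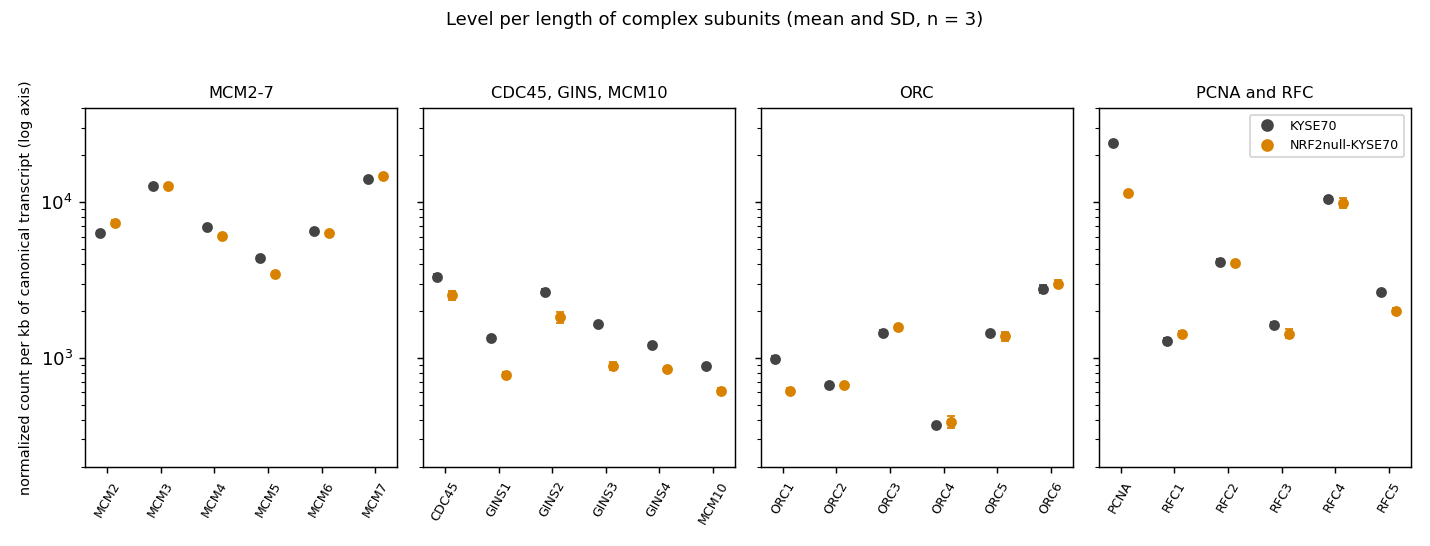
Normalized counts per kilobase of canonical transcript (log axis) for subunits of 4 groups in KYSE70 (grey) and NRF2null-KYSE70 (orange), as mean and SD of 3 libraries. PCNA moved from 24137 to 11375, each GINS gene was lower, and ORC1 was the ORC gene that fell.

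Several of the largest differences lay where neighbouring genes on the chromosome differed in the same direction. The 40 nearest tested protein-coding genes of each member formed a window, which spanned from 1.14 megabases for POLA2 to 25.6 megabases for PRIM2. For each member, the median log2 fold change of these 40 genes was taken. It was below -0.4 for 5 of the 46 members, PCNA (-0.92), TIMELESS (-0.64), PRIM1 (-0.62), POLE (-0.54) and GINS1 (-0.41), while 8.47% of tested protein-coding genes had such neighbours. It was above 0.3 for 4 of the 46, MCM2 (0.47), TIPIN (0.36), DBF4 (0.31) and RFC1 (0.31), against 6.70% of protein-coding genes. These were 4 of the 5 members that rose. Both kinds of window were only slightly more frequent among members than among protein-coding genes. TIMELESS and PRIM1 lie close together on chromosome 12, so their windows share genes. Across the 46 members, r was 0.71 and Spearman's rho 0.61 between a member and its neighbours, against 0.23 and 0.33 across all 12781 tested protein-coding genes, as a description. The points share libraries, and some share neighbours.

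After the neighbours' median was subtracted, 29 members were lower and 1, RPA1, was higher at a limma adjusted p under 0.05, against 27.0% and 27.3% of the 15904 genes that had a window. MCM2 (-0.25) and RFC1 (-0.16) turned from higher to lower calls, with limma adjusted p of 0.00105 and 0.0186. TIPIN, called higher before, had -0.044 and lost its call (limma adjusted p = 0.558). PCNA kept its call but had a log2 fold change of only -0.16 (limma adjusted p = 0.00977). TIMELESS (-0.080), PRIM1 (-0.17), GMNN (-0.076) and DBF4 (0.13) lost their calls, with limma adjusted p of 0.274, 0.0641, 0.403 and 0.0587, and POLE turned to 0.068 (limma adjusted p = 0.374). MCM6, CDT1, RFC2 and RFC4, which had not passed before, were lower after the subtraction (log2 fold changes of -0.14, -0.13, -0.25 and -0.30). The subtracted median was taken as a fixed value. The p-values after subtraction therefore leave out the spread among the neighbours, and calls gained or lost this way carry that limit. Other members differed from neighbours that had moved little. GINS3 kept -0.97 after subtraction, FEN1 -0.71, GINS2 -0.58, ORC1 -0.57, POLA2 -0.55 and MCM10 -0.54. Of the 27 lower members, 21 had a neighbours' median within 0.2 of 0. The share of all tested genes with so small a median was not counted, so this count does not set the members apart. The number of copies of these regions in each line was not measured, and its part in the result was not tested.

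**Figure D4:**
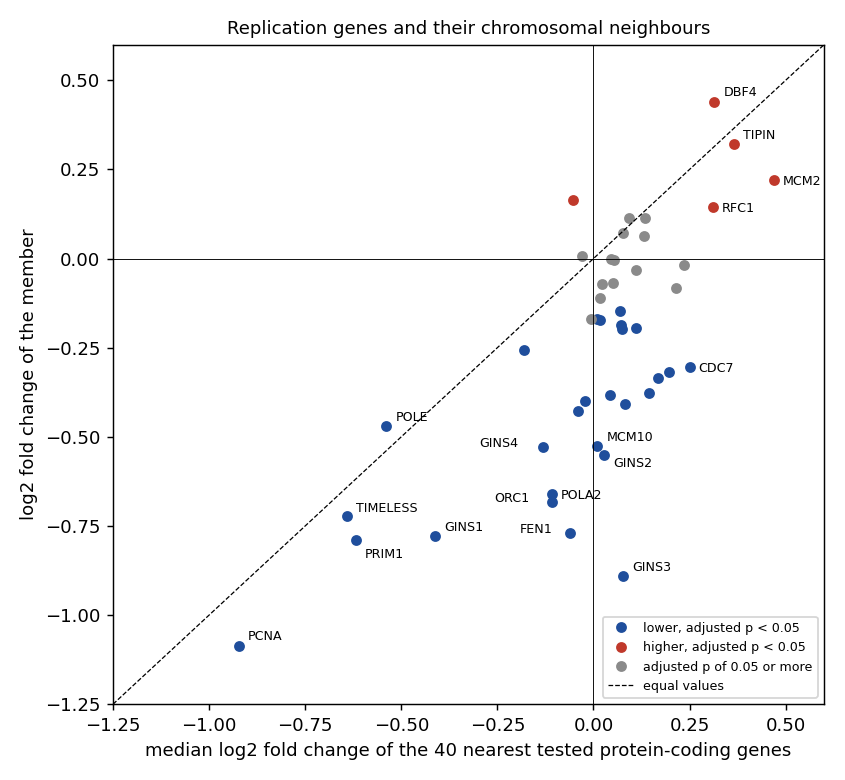
Log2 fold change of each member (vertical) against the median log2 fold change of the 40 nearest tested protein-coding genes (horizontal), coloured by call, with equal values on the dashed line. PCNA (-1.09 against -0.92), TIMELESS, POLE and PRIM1 lie near that line, whereas GINS3 (-0.89 against 0.077) and FEN1 (-0.77 against -0.060) lie far below it.

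Promoter letters were read because E2F proteins are known inducers of many of these genes. RefSeq promoters on GRCh38.p14, from 250 bases before to 50 after the start, were found for 40 members. The words searched on both strands were TTTCGCGC, TTTGGCGC, TTTCCCGC and GGCGGGAA, of which the last overlaps the reverse of TTTCCCGC. At least 1 word was found in 24 of the 40, counting every promoter of a gene, against 6.03% of all 27305 genes and 5.03% of all 35116 promoters. The share holding a word was 15 of 22 lower members, 7 of 13 that did not pass and 2 of 5 higher members. The core TGACNNNGC of the site that NRF2 is known to bind was found in 6 of 40, against 16.1% of all genes and 13.3% of all promoters, and CCAAT in 24 of 40, against 39.7% of genes and 34.6% of promoters. The 250 bases before the start are shown for 4 members, 5′ to 3′ on the strand of the gene, with E2F words in capitals. PCNA and CDC7 hold GGCGGGAA and were lower, FEN1 holds no such word and was lower, and MCM6 holds 2 pairs of overlapping words and did not pass. The windows are chr20:5126623-5126872 (minus strand) for PCNA, chr1:91500601-91500850 (plus) for CDC7, chr11:61792661-61792910 (plus) for FEN1 and chr2:135876444-135876693 (minus) for MCM6. Letters alone do not show that a factor binds.
PCNA: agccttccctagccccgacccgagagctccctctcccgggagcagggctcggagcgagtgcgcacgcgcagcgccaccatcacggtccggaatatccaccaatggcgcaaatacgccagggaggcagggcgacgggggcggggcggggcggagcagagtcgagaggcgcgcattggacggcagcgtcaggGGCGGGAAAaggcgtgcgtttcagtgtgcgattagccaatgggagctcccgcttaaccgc
CDC7: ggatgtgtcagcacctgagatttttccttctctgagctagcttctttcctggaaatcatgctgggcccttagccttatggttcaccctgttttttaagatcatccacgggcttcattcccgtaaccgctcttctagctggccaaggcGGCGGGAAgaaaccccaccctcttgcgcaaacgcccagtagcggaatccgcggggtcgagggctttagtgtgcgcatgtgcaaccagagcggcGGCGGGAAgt
FEN1: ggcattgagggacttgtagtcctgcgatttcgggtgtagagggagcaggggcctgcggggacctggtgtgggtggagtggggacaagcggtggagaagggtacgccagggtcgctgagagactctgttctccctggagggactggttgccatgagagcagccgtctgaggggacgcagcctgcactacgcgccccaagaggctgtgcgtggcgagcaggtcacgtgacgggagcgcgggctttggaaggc
MCM6: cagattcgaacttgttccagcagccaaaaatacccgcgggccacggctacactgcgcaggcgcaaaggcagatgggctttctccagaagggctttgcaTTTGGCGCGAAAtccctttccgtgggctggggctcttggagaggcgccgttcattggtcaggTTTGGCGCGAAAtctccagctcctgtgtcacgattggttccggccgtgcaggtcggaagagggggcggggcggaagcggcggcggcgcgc

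Other genes of replication, a list of 40 that holds no member, were also more often lower than higher. Of these, 22 (55.0%) were lower and 5 (12.5%) were higher, against 28.3% and 29.3% of all tested genes, with a median log2 fold change of -0.20. The list was chosen with earlier results of these data known, so it is no independent check of the members. The largest falls were those of RNASEH2A (-1.33, limma adjusted p = 0.00604), a ribonuclease subunit with only 72.6 and 28.0 mean normalized counts, ATRIP (-0.96), the partner of the checkpoint kinase ATR, and MCM8 (-0.95), a helicase of repair. They were followed by POLE3 (-0.62), a small subunit of polymerase epsilon, the histone chaperone ASF1A (-0.50) and ATR (-0.50), each with a limma adjusted p under 0.05. MCM8 shared a neighbours' median of -0.92 with PCNA, and that of ATRIP was -0.69.

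Of 12 genes listed for deoxynucleotide supply, 8 were lower and 1 was higher, where 28.3% and 29.3% of all tested genes were. The list also held SLBP, which binds histone RNA and did not pass. SAMHD1, which breaks down deoxynucleotides, fell by 1.24 on the log2 scale (limma adjusted p = 3.77e-09), and DCTPP1, which removes unwanted ones, fell by 1.10 (limma adjusted p = 5.93e-08). SAMHD1 and DCTPP1 had neighbours' medians of -0.33 and -0.66, which left -0.91 and -0.44 after subtraction. DTYMK, the thymidylate kinase, had a log2 fold change of -0.9997, just short of the threshold of 1 in size. The ribonucleotide reductase subunit RRM2 fell by 0.56 and thymidylate synthase TYMS by 0.35, while RRM2B, a reductase subunit of resting cells, rose by 0.63.

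Of the genes of G1/S control, 10 of 30 were lower and 10 were higher, or 33.3% each, near the 28.3% and 29.3% of all tested genes. CCND2, a D-type cyclin, was past both thresholds (log2 fold change 1.02, limma adjusted p = 5.11e-07). The repressor E2F7 (-0.98), the cyclin CCND3 (-0.95), the kinases CDK4 (-0.94) and CDK2 (-0.87) and the pocket protein RBL1 (-0.90) fell. CDK4 and CDK2 had neighbours' medians of -0.58 and -0.66.

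Markers of G2 and M phase were more often higher than lower, with 3 of 20 lower and 8 higher (15% and 40%, against 28.3% and 29.3% of all tested genes) and a median of 0.079. After the neighbours' median was subtracted, 4 were lower and 7 higher, with a median of -0.017. MYBL2, a transcription factor of the cell cycle, fell by 0.83 (limma adjusted p = 3.97e-08), whereas the cyclin CCNB2 (0.75), the kinetochore proteins CENPE (0.49) and CENPF (0.41), and the checkpoint kinases TTK (0.37) and BUB1B (0.36) rose, each with a limma adjusted p under 0.05. CCNB2 and BUB1B had neighbours' medians of 0.58 and 0.38, which left 0.17 and -0.016 after subtraction. MKI67, the general marker of dividing cells, measured 27863 ± 3711 (SD, n = 3) in KYSE70 and 29694 ± 5361 in NRF2null-KYSE70. Its log2 fold change was 0.085 and did not pass (limma adjusted p = 0.535). Cell cycle phases were not measured in these libraries. Separately, the study reported by flow cytometry that the cell cycle distribution differed between these lines, and that NRF2null-KYSE70 grew more slowly. The part of either in the RNA results was not tested.

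Some members overlap other annotated genes on the same or the opposite strand, and the library kit does not mark strand. Exons of other genes covered 23.6% of exon bases of MCM2, 23.4% of GINS4, 21.3% of POLA2, 21.1% of TIPIN, 19.1% of PRIM1, 10.9% of GINS3 and 10.7% of RFC5. In those stretches reads of the overlapping genes cannot be told apart from those of the member.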

How the data were processed

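RNA of KYSE70 and NRF2null-KYSE70 (3 libraries each) was sequenced. Reads that passed quality filters were aligned by the authors with STAR (version 2.6.90c) to hg38, counted per gene with featureCounts (version 1.5.1) and divided by DESeq2 size factors, so the deposited signal was a normalized count. The strand setting and the handling of reads with several alignments are not given in the sources used here. The columns carry the line but no replicate number, so libraries are numbered by their order in the table. Whole reads were recovered because each value was a whole multiple of what 1 read was worth (0.889 to 1.14), in 100% of values within a tolerance of 0.1, and totals were 52072801 to 63975313 reads.

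Tests used limma (version 3.58.1, lmFit and eBayes with trend) in R 4.3.3, two-sided, on log2(normalized count + 1). They covered the 15994 genes with a mean of at least 10, with Benjamini-Hochberg adjustment over all of them and thresholds of an adjusted p under 0.05 and a log2 fold change of 1. Folds on this scale understate changes of low genes. The test was also run on simulated counts in which far fewer genes differed than were called here. That run cannot show how the test behaves in data like these. Alternatives used edgeR (4.0.16) and DESeq2 (1.42.0) on the recovered reads, which called 9201 and 9202 genes at an adjusted p under 0.05, against 9206 by limma. Genes were placed on hg38 with GENCODE v44, which held 58472 of the 58884 identifiers, and promoters were taken from RefSeq (GRCh38.p14), in which 6 members (GINS4, MCM4, MCM5, POLD3, RPA2 and RPA3) had no entry.

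The members and the other gene lists were chosen with earlier results of these data known. Every member was named. Values in each library were given for the 10 members with the largest log2 fold change, for any past both thresholds, and for members that stood apart from their role. From other lists, genes past both thresholds were named. From all of these but the cell type markers, up to 6 of the largest called changes were named too. NFE2L2 and MKI67 served as checks. A single immune marker is not reported here.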

Additional observations from a re-analysis of the deposited data

How the results depend on the processing

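Across 18 alternatives (pseudocount, filter, scaling, limma settings, edgeR, DESeq2, each library left out and neighbour-centring, that is, subtraction of the neighbours' median), 19 of the 27 lower members kept their call in all, and none of the 5 higher members did. edgeR and DESeq2 on recovered reads changed no member's call. The count of lower members was 24 to 28 with a library left out. Higher members numbered 3 under total scaling, 2 under quantile normalization and 1 under neighbour-centring, and members past both thresholds 0 under neighbour-centring. Higher genes of the wider list numbered 3 without the filter, 2 under total scaling, 3 without the trend and 2 to 4 with a library left out. The members' median log2 fold change was -0.27 under total scaling, -0.25 under quantile normalization and -0.22 to -0.17 with a library left out. Total scaling moved the median of all genes by -0.075. Signs turned for MCM3 under TMM (-0.0052), total (-0.068) and quantile scaling (-0.063), for MCM7 (-0.012) and ORC4 (-0.0044) under total scaling, and under neighbour-centring for MCM2 (-0.25), MCM7 (-0.068), ORC3 (-0.021), ORC4 (-0.0050), POLE (0.068), RFC1 (-0.16) and TIPIN (-0.044). With a library left out, ranges crossed 0 for MCM3 (-0.013 to 0.029), ORC2 (-0.015 to 0.019), POLD2 (-0.017 to 0.024), RFC2 (-0.052 to 0.0052) and RPA3 (-0.15 to 0.044). With 150 bases before the start in place of 250, 24 of 40 members held an E2F word against 4.29% of all genes. Counted alone in the 250-base window, the words were found in 5 (TTTCGCGC), 8 (TTTGGCGC), 11 (TTTCCCGC) and 10 (GGCGGGAA) members. The causes were not tested. No paired analysis was possible because columns are named by line only. With 3 libraries a line and 1 clone, differences between clones were not measured.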
